A study of Mus musculus with 4 samples.

Results

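Pentylenetetrazole (PTZ) blocks GABA-A receptors and so causes seizures. The response of tau-/- brain to PTZ was examined by setting the library of PTZ-injected tau-/- mice against the library of vehicle-injected tau-/- mice. All 230 genes of the deposited table were compared, as log2 of the FPKM ratio of tau-/- PTZ to tau-/- vehicle. FPKM counts the fragments of a transcript per length and per size of the library. The series has 4 libraries of brain RNA, 1 for each of tau+/+ vehicle, tau+/+ PTZ, tau-/- vehicle and tau-/- PTZ, and 2 of them enter the tau-/- comparison. All mice were C57Bl/6 and 6 weeks of age. The PTZ groups received 50 mg/kg intraperitoneally and were sampled 1 h later, and the groups labelled sham received vehicle. The tau-/- mice carry the coding sequence of green fluorescent protein in the first exon of Mapt, the gene for the microtubule-associated protein tau, on both alleles. The PTZ-injected animals sequenced were chosen to be alike in seizure score. How many animals made up a library is not given in the sources used here. The labels name brain as the source but also speak of primary neurons, and the markers below hold genes of choroid plexus, meninges and endothelium, so the libraries are described as brain.

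The 230 genes were selected on these same libraries for a change after PTZ in tau+/+ and for a missing or milder change in tau-/-. How many of them moved in tau-/- therefore describes a chosen list and not the transcriptome. Entry favoured genes with less change in the same direction in tau-/-, although some listed genes changed more there. With 1 library per condition there are no replicates, no test was made, and a difference between libraries cannot be told apart from a difference between the animals in them. A gene is called higher or lower here when it was past 1.5-fold. The study joined this fold to a limit on its p-values, which was not applied here. Mapt is not analysed here, so genotype rests on the labels.

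Seizure activity opens calcium channels and NMDA receptors, and calcium entry switches on immediate early genes, which need no new protein synthesis for their transcription. Kinases of the Ras and ERK pathway and calcium-dependent kinases act on serum response factor and its partners, which bind the CArG box, and on CREB, which binds the cAMP response element (CRE). Early gene products include transcription factors such as Fos and Egr1, synaptic proteins such as Arc, and negative regulators such as the phosphatase Dusp1 and the mRNA decay factor Zfp36.

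In tau-/- brain, 20 of the 230 genes were higher after PTZ (8.7% of the list) and 38 were lower (16.5%). The other 172, or 74.8%, stayed within 1.5-fold of vehicle. The list as a whole was nearly centred on no change, with a median log2 of -0.10 and quartiles at -0.39 and 0.23 among the 229 genes with a log2 value. Close agreement between the libraries was common: 53 genes lay within 1.1-fold and 95 within 1.2-fold of vehicle. Past 2-fold there were 12 higher and 23 lower genes. The genes within 1.5-fold leaned slightly downward, with 97 below vehicle and 75 above it, and a median log2 of -0.05.

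**Figure D1:**
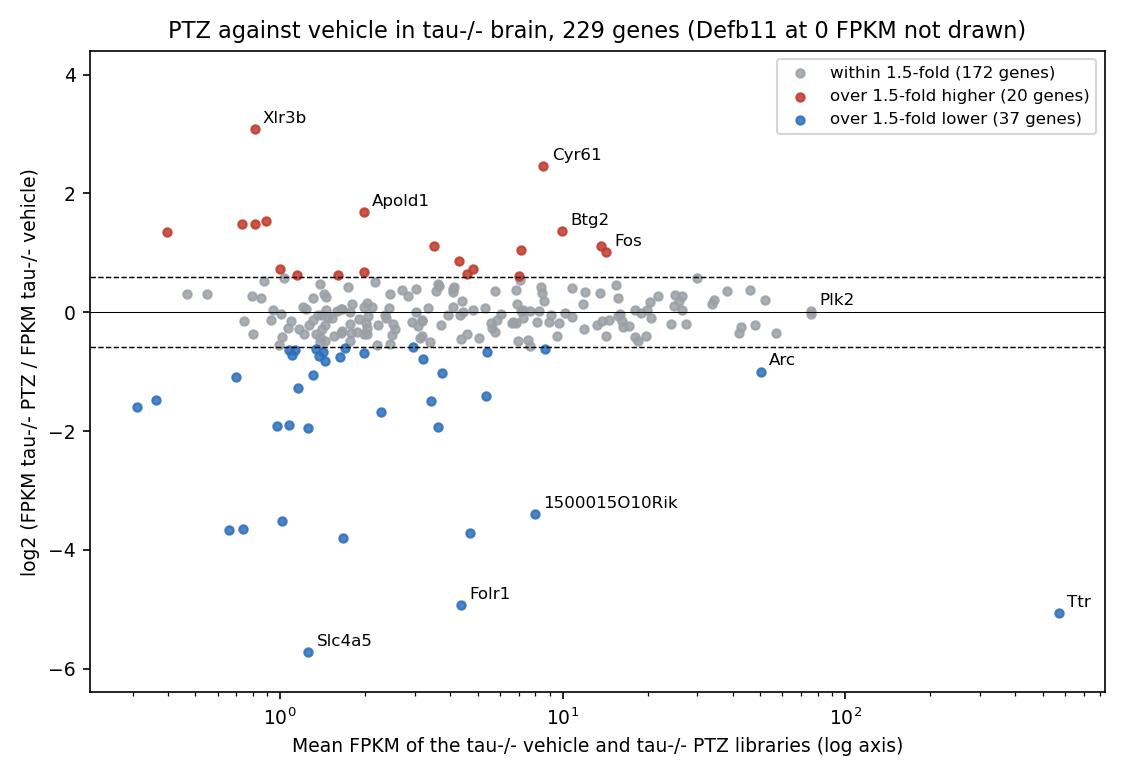
Change after PTZ in tau-/- brain against expression level. The horizontal axis is the mean FPKM of both tau-/- libraries on a log scale, the vertical axis is log2 of FPKM in tau-/- PTZ over tau-/- vehicle, each point is a gene and dashed lines mark 1.5-fold; the 20 higher genes have means from 0.397 to 14.2 FPKM, and none of the 24 genes with a mean of 20 FPKM or more is among them.

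The genes that were higher in tau-/- PTZ included early transcription factors, negative regulators of signalling and mRNA, and vascular early genes. Outside the functional lists, Xlr3b is an X-linked gene of a family with several near-identical copies, Unc13c encodes a protein that primes synaptic vesicles for release, and Rai14, Gm6194 and Gm11549 are named only. Gm6194 and Gm11549 belong to the list of genes that the table gives under a clone or model symbol.

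Cyr61, an early gene for a secreted matricellular protein, had the largest change among higher genes above 1 FPKM in tau-/- vehicle. It went from 2.63 to 14.5 FPKM in tau-/-, a log2 change of 2.46, and from 2.03 to 32.3 FPKM in tau+/+. Cyr61 lies on chromosome 3 from 145646976 to 145649981 (GRCm38, as are the positions that follow). Both PTZ libraries thus stood well above both vehicle libraries for this gene. Apold1, an early response gene of endothelial cells on chromosome 6 from 134981718 to 134986836, showed the same order. Its level was 0.940 FPKM with vehicle and 3.01 FPKM with PTZ in tau-/-, and 0.633 and 5.70 FPKM in tau+/+. Its log2 change in tau-/- was 1.68. Klf4, a Krüppel-like transcription factor, went from 2.21 FPKM in tau-/- vehicle to 4.79 FPKM in tau-/- PTZ, a log2 change of 1.12, beside 1.66 in tau+/+. These are the 3 higher genes among the 8 of the vascular and matricellular list, beside 8.7% of all listed genes. The other 5 were within 1.5-fold: Klf2, a flow-responsive transcription factor of endothelium, had a log2 of 0.36 and the metalloprotease gene Adamts1 0.19, while thrombospondin 1 (Thbs1) had -0.36. The list's median log2 was 0.28 in tau-/-, against -0.10 for all listed genes, and 1.61 in tau+/+. The summed level of 4 endothelial markers (Apold1, Klf2, Gimap6 and Col4a2) was 15.4 FPKM after vehicle and 19.2 FPKM after PTZ in tau-/-. Apold1 and Klf2 made up that gain, while Gimap6 (2.37 and 2.49 FPKM) and Col4a2 (6.11 and 5.97 FPKM) were nearly level. All 4 markers are themselves members of the vascular and matricellular list. Their part in the vascular values was not tested.

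The AP-1 family, whose Fos, Jun and related basic leucine zipper proteins bind DNA as dimers, had the highest median log2 of the 17 lists. All 7 listed members were above vehicle in tau-/- PTZ, 4 of them past 1.5-fold, with a median log2 of 0.60. Of all 230 genes, 95 were above vehicle and 8.7% were past 1.5-fold higher. In tau+/+ their median log2 was 3.05. Fos, on chromosome 12 from 85473890 to 85477273, had 9.43 FPKM after vehicle and 19.1 FPKM after PTZ in tau-/-, a log2 change of 1.01. In the tau+/+ libraries it was at 6.80 and 119 FPKM, so tau-/- PTZ lay above both vehicle libraries and far below tau+/+ PTZ. Atf3, a stress-induced member, went from 0.386 to 1.08 FPKM in tau-/-, a log2 change of 1.48, and stood at 9.10 FPKM in tau+/+ PTZ. Maff, which encodes a small Maf protein, went from 0.429 to 1.19 FPKM, also a log2 change of 1.48. Both Atf3 and Maff started below 1 FPKM, where few fragments carry the value. With a pseudocount of 1 FPKM, Atf3 and Fosb came within 1.5-fold and 2 AP-1 genes, Fos and Maff, remained higher. Fosb went from 5.57 to 8.45 FPKM in tau-/-. Its log2 of 0.60 placed it closest to the threshold of all higher genes, although its log2 of 4.72 in tau+/+ was the largest of the whole list. The members with the highest levels moved least: Junb had a log2 of 0.37, from 40.3 to 51.9 FPKM, and Jun had 0.20, from 31.8 to 36.6 FPKM. Fosl2 had a log2 of 0.40.

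The Egr, Nr4a and Npas4 group of activity-induced transcription factors stayed near tau-/- vehicle. Only Npas4 of the 9 genes was past 1.5-fold, near the 8.7% of all listed genes, and the median log2 was 0.03 in tau-/-, beside 2.42 in tau+/+. Npas4, a neuronal factor that responds to calcium entry, lies on chromosome 19 from 4984355 to 4990316. Levels of 3.57 and 5.58 FPKM in tau-/- stood beside 3.21 and 76.9 FPKM in tau+/+, and the log2 was 0.64 in tau-/- and 4.58 in tau+/+. With a pseudocount of 1 FPKM Npas4 came within 1.5-fold, leaving 0 higher genes in the group. Egr1, a zinc finger factor widely used as a marker of neuronal activity, was level in tau-/-, with 76.1 FPKM after vehicle and 74.9 FPKM after PTZ. In tau+/+ it went from 51.0 to 274 FPKM. Nr4a1, an orphan nuclear receptor, had a log2 of 0.35 in tau-/- (33.7 and 42.9 FPKM) and was at 178 FPKM in tau+/+ PTZ. Nr4a2 and Nr4a3 had log2 values of 0.03 and 0.10. Egr2 had 0.13, and Egr3, Srf and Egr4 lay below vehicle at -0.22, -0.24 and -0.39. Of the vehicle libraries, that of tau-/- held the higher level for all 9 genes, among them Egr4 (22.3 against 9.45 FPKM), Nr4a1 (33.7 against 16.3 FPKM) and Egr1 (76.1 against 51.0 FPKM). Against tau+/+ vehicle the median log2 of the group in tau-/- PTZ was 0.80, so its place near vehicle holds for the tau-/- vehicle library only.

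The list of negative regulators of mRNA and kinase signalling had 4 higher genes of 12, 0 lower, and a median log2 of 0.39, beside 8.7% higher, 16.5% lower and a median of -0.10 over all listed genes. Dusp1, a phosphatase that switches off MAP kinases, went from 8.66 to 18.7 FPKM in tau-/-, with 8.70 and 40.2 FPKM in tau+/+. The vehicle libraries held nearly the same level of Dusp1, and its log2 was 1.11 in tau-/- and 2.21 in tau+/+. Zfp36 and Zfp36l2 encode proteins that bind AU-rich mRNAs and speed their decay. Zfp36 had a log2 of 0.86 (3.04 to 5.52 FPKM). Zfp36l2 had a log2 of 1.04 (4.65 to 9.57 FPKM), above its 0.75 in tau+/+, but its tau+/+ vehicle level of 7.90 FPKM was close to that of tau-/- PTZ. Sik1, a salt-inducible kinase, had a log2 of 0.73 (3.63 to 6.01 FPKM). The other phosphatases for MAP kinases did not share the change of Dusp1, since Dusp6 had a log2 of 0.28, Dusp5 -0.28 and Dusp4 -0.48. Spry2, an inhibitor of Ras and ERK signalling, and Ppp1r15a, a regulatory subunit of a phosphatase for the initiation factor eIF2 alpha, had log2 values of 0.45 and 0.42.

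Btg2, an antiproliferative early gene on chromosome 1 from 134075170 to 134079120, was over 2-fold higher after PTZ. The tau-/- values were 5.56 FPKM after vehicle and 14.3 FPKM after PTZ, beside 7.10 and 105 FPKM in tau+/+. Its log2 was 1.36 in tau-/- and 3.89 in tau+/+. The list of other early transcription regulators held 2 higher genes of 14, Btg2 and Klf4, and 1 lower gene, Cebpb, with a median log2 of 0.27, beside 8.7% higher and 16.5% lower over all listed genes. Cebpb, a basic leucine zipper factor of the acute-phase response, went from 4.99 to 2.46 FPKM in tau-/-, a log2 of -1.02. It was at 2.37 FPKM in tau+/+ vehicle, so the tau-/- vehicle library was the high one of the vehicle pair. Gm129 and the early gene Ier2 stayed inside the threshold with log2 values of 0.53 and 0.42, while the clock gene Per1 was level at -0.01.

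**Figure D2:**
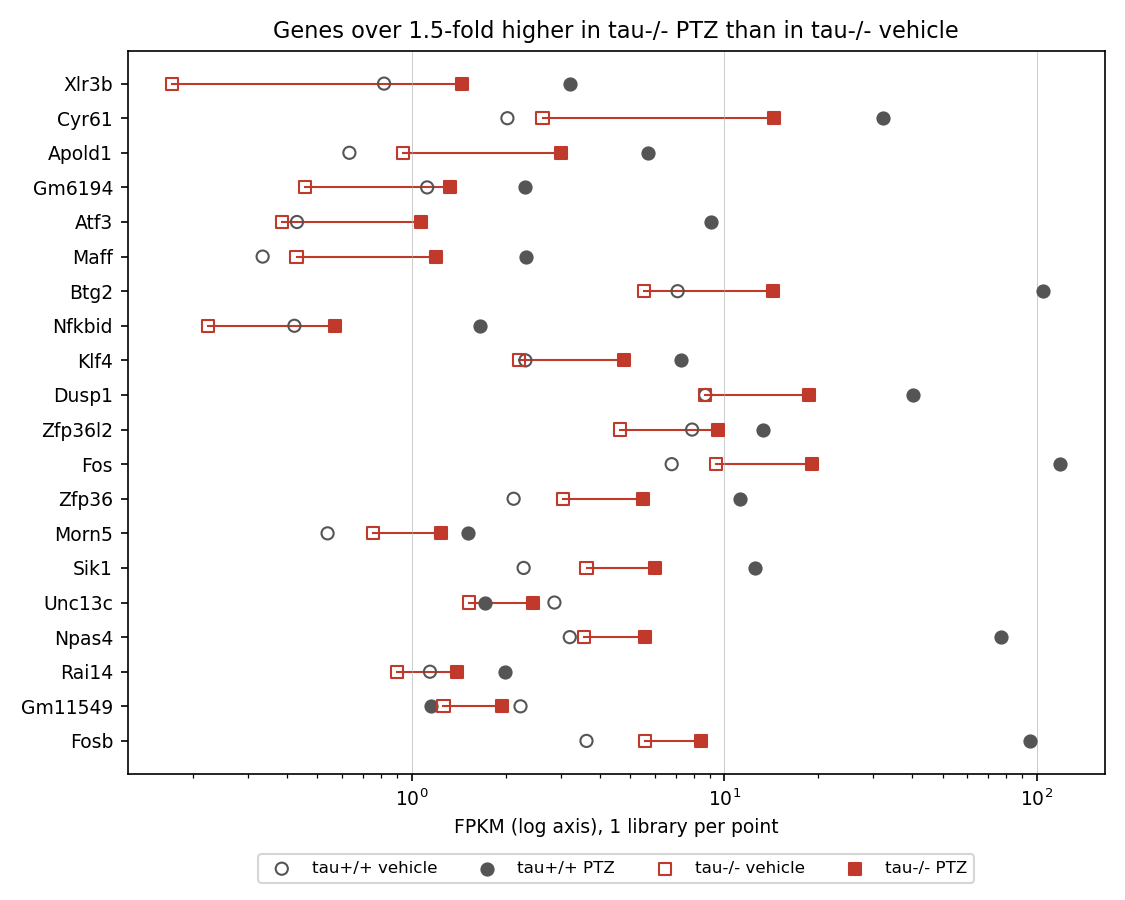
FPKM of the 20 genes over 1.5-fold higher in tau-/- PTZ, in each of the 4 libraries. The horizontal axis is FPKM on a log scale, each row is a gene ordered by its tau-/- change, squares are tau-/- and circles tau+/+, open symbols are vehicle and filled symbols PTZ, and a line joins the tau-/- pair; the filled squares lie left of the filled circles in every row except Unc13c and Gm11549.

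Promoter windows from RefSeq (GRCm38.p6, 250 bases before to 50 bases after the start site) were searched for the motifs that early genes are known for. A window was on hand for 174 of the 230 genes and for 17 of the 20 higher genes, the exceptions being Sik1, Gm6194 and Zfp36l2. The full CRE, TGACGTCA, which reads the same on both strands, was in 4 of the 17 higher genes (Btg2, Dusp1, Maff and Nfkbid), or 23.5%. It was in 8 of 129 genes within 1.5-fold, or 6.2%, in 1 of 28 lower genes, Arl4d, and in 2.03% of the 27025 genes with a window in the table. The CArG box was in 1 of the 17 higher genes, Zfp36, and in 4 of the 129 genes within 1.5-fold (Dusp5, Egr2, Srf and Ston1), in 0 of 28 lower genes and in 1.81% of all genes with a window. The AP-1 site, TGANTCA on either strand, which shares no match with the full CRE, was in 0 of 17 higher genes, in 6 of 129 genes within 1.5-fold (4.65%), in 2 of 28 lower genes and in 8.97% of all genes with a window. A gene with several windows was counted once, as holding a motif if any of its windows did. Maff and Nfkbid had 3 windows each and Btg2 and Dusp1 had 1 each, while the 27025 genes had 32851 windows in all. More windows give more chances of a match, so the shares above are not strictly comparable. These are matches of letters in a 300-base window, from few genes, and no test was made. The stretches are printed in the direction of transcription with the motif in capitals. They show the 4 higher genes with a CRE, then Plk2, a gene with a CRE that stayed level, then the CArG boxes of Zfp36, which was higher, and of Srf, which was not. They lie at chr1:134079269-134079366 (minus strand), chr17:26508563-26508660 (minus), chr15:79347446-79347519 (plus), chr7:30422310-30422405 (plus), chr13:110394937-110395034 (plus), chr7:28379232-28379331 (minus) and chr17:46556170-46556289 (minus), in the order printed.
Btg2: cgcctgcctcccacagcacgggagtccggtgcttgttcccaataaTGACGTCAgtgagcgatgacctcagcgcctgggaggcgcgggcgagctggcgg
Dusp1: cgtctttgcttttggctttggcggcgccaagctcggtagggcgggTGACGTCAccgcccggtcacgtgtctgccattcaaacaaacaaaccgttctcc
Maff: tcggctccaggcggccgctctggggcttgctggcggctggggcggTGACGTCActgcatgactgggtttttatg
Nfkbid: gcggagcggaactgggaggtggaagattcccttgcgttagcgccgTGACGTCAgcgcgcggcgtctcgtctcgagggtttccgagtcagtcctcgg
Plk2: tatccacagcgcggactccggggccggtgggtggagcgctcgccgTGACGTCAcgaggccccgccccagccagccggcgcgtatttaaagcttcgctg
Zfp36: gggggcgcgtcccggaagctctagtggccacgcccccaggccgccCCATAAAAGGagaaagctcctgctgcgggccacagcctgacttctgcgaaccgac
Srf: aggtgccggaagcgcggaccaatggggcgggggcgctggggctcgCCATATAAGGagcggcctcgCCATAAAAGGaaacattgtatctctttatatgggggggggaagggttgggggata

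The CRE of Maff ended 22 bases before the start site of its window, that of Nfkbid 44, of Plk2 55, of Dusp1 136 and of Btg2 159 bases before it. For Maff and Nfkbid, with 3 windows each, this is an alternative start site inside the gene. For Btg2, the first bases of the window were not found in a transcript, unlike those of the other genes printed, so its start site is uncertain. The CArG box of Zfp36 ended 49 bases before the start site, and those of Srf 73 and 53 bases before it. Plk2, a polo-like kinase of activated synapses, shows that a CRE in the window did not go with a higher level in each gene: its tau-/- levels were 75.4 FPKM with vehicle and 76.3 FPKM with PTZ, and it was the most abundant gene of the flat group.

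The remaining higher genes were mostly of low level. Xlr3b had the largest log2 of the list, 3.08, but rested on levels of 0.171 and 1.45 FPKM in tau-/-, with 0.817 and 3.22 FPKM in tau+/+. Reads of its near-identical copies could be shared with it, so the value is uncertain. Nfkbid, which encodes a nuclear inhibitor-like partner of NF-kB, went from 0.223 to 0.570 FPKM, a log2 of 1.36. Gm6194 went from 0.455 to 1.32 FPKM, Morn5 from 0.751 to 1.24 FPKM and Rai14 from 0.898 to 1.39 FPKM. In all, 6 of the 20 higher genes had a mean below 1 FPKM over the tau-/- libraries and 6 had a mean of 5 FPKM or more. Unc13c and Gm11549 were the only higher genes that went the other way in tau+/+. Unc13c was at 1.52 and 2.44 FPKM in tau-/- vehicle and PTZ, against 2.87 and 1.72 FPKM in tau+/+. Gm11549 was at 1.27 and 1.94 FPKM in tau-/-, against 2.23 and 1.16 FPKM in tau+/+, and for both genes all 4 values lay between 1.16 and 2.87 FPKM.

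For the 18 genes that were higher in both genotypes, tau-/- PTZ was below tau+/+ PTZ in 18 of 18. The log2 change was smaller in tau-/- for 15 of them, the exceptions being Xlr3b, Gm6194 and Zfp36l2. In these exceptions tau-/- vehicle was below tau+/+ vehicle. This did not set them apart, since Atf3, Btg2, Nfkbid, Klf4, Dusp1 and Rai14 had the same order of the vehicle libraries. Measured as the gain in FPKM, the tau-/- gain was 2.73% to 90.8% of the tau+/+ gain, with a median of 35.2%. Npas4 held the lowest share and Fosb, with 3.14%, the next. Atf3, Fos and Btg2 kept 7.96%, 8.57% and 8.94%. Dusp1, Cyr61 and Apold1 kept 31.8%, 39.1% and 40.9%, so of the 6 genes with the largest tau+/+ log2, all but Cyr61 kept under 10%. Selection of the list for a milder tau-/- change bears on all of these shares.

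The tau-/- values were also set out by the size of the tau+/+ change. The 175 genes that were higher after PTZ in tau+/+ were ordered by their tau+/+ log2 and cut into 4 parts. In the top 44, with tau+/+ log2 from 1.68 to 4.72, 13 genes were higher in tau-/-, 27 within 1.5-fold and 4 lower, with a median tau-/- log2 of 0.17. In the next 44 genes, 3 were higher and 5 lower, with a median of 0.03. The third part of 44 had 2 higher and 13 lower genes and a median of -0.17. The last 43 had 0 higher and 9 lower and a median of -0.24. Choroid plexus genes, described below, made up most of the lower genes in the third part, such as Ttr and Kcnj13. They also made up most of those in the last part, such as Slc4a5 and Aqp1. Counted in either direction, 17, 8, 15 and 9 genes were past 1.5-fold, which shows no steady order. The rule of entry left little room for a higher tau-/- value in genes with a small tau+/+ change, so the order of the higher counts cannot be told apart from that rule.

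**Figure D3:**
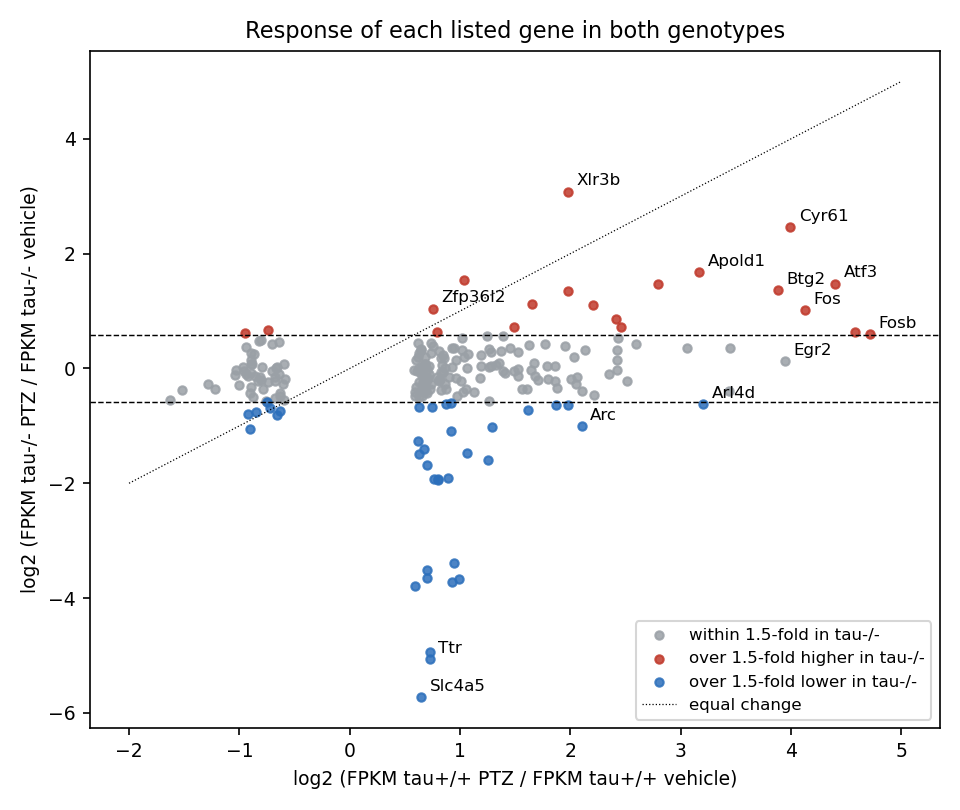
Change after PTZ in both genotypes for the 229 genes with a log2 value. The horizontal axis is log2 of FPKM in tau+/+ PTZ over tau+/+ vehicle, the vertical axis is the same in tau-/-, the dotted line marks equal change and dashed lines mark 1.5-fold in tau-/-; every gene with a tau+/+ log2 above 2 lies under the dotted line, and the 9 lowest points are choroid plexus genes.

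The effector genes of neuronal activity had shares of higher and lower genes near those of all listed genes. In the list of synaptic and secreted effectors, 0 of 11 genes were higher and 2 were lower, with a median log2 of -0.15 in tau-/- and 1.79 in tau+/+, beside 8.7% higher, 16.5% lower and a tau-/- median of -0.10 over the whole table. Arc, which encodes a protein of dendrites that regulates removal of AMPA receptors, lies on chromosome 15 from 74669083 to 74672570. It went from 67.2 to 33.6 FPKM in tau-/-, with 39.0 and 168 FPKM in tau+/+ vehicle and PTZ. The log2 of Arc was thus -1.00 in tau-/- and 2.11 in tau+/+, and tau-/- vehicle was the second-highest of the 4 libraries. Kcnj2, an inward rectifier potassium channel, went from 1.38 to 0.882 FPKM, a log2 of -0.64. Bdnf, a growth factor released by active neurons, had a log2 of -0.22 (14.3 and 12.2 FPKM), Nptx2, which clusters AMPA receptors, -0.15 and the protocadherin gene Pcdh8 0.04. The highest value of the list was 0.32, for Ptgs2, the inducible cyclooxygenase. The summed level of the neuronal markers Arc, Npas4, Bdnf, Nptx2 and Pcdh8 was 119 FPKM after vehicle and 84.7 FPKM after PTZ in tau-/-, and Arc made up most of that difference. All 5 were above 1 FPKM in each library. They are activity-induced genes themselves and so say little of how many neurons a sample held.

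The 10 most abundant genes within 1.5-fold were Plk2, Egr1, Dnajb5, H3f3b, Egr3, Junb, Bhlhe40, Sgk1, Nr4a1 and Jun, with means from 75.8 down to 34.2 FPKM. Their log2 values ran from -0.35 for the kinase gene Sgk1 and the cochaperone gene Dnajb5 to 0.37 for Junb. Sgk1, which glucocorticoids induce, went from 47.3 to 37.1 FPKM in tau-/-, with 19.4 and 59.3 FPKM in tau+/+. The histone variant gene H3f3b was at 48.3 and 55.6 FPKM in tau-/-. Several small lists had 0 genes past 1.5-fold, which sets them little apart from the 74.8% of all listed genes within it. The 6 growth arrest and apoptosis genes had a median log2 of -0.20. Gadd45b was the nearest at -0.57 (9.19 to 6.20 FPKM), and Gadd45g, another gene of that stress-inducible family, had -0.40. The 8 genes of cold-inducible and splicing proteins were all within 1.5-fold, with a median of 0.04. They ran from -0.48 for Clk1, a kinase of splicing factors, to 0.34 for Rbm3, a cold-inducible RNA-binding protein. The 8 metabolic enzyme genes were also all within it, with a median of 0.05. The cochaperone genes Dnajb1 and Dnajb5 had log2 values of 0.18 and -0.35.

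The share of flat genes was greater at higher levels. Among the 85 genes with a tau-/- mean under 2 FPKM, 61.2% were within 1.5-fold, with 10 higher and 23 lower. From 2 to under 5 FPKM the share was 77.2% of 57 genes, from 5 to under 20 FPKM it was 84.4% of 64 genes, and at 20 FPKM or more it was 91.7% of 24 genes. The 2 genes outside 1.5-fold in the top class were Arc and Ttr, both lower. The spread between libraries that a gene's fragment count alone would give could not be computed from FPKM, and its part in the wider spread of low genes was not tested. With the level taken from the tau+/+ libraries instead, the shares were 69.7%, 69.1%, 81.2% and 80%.

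**Figure D4:**
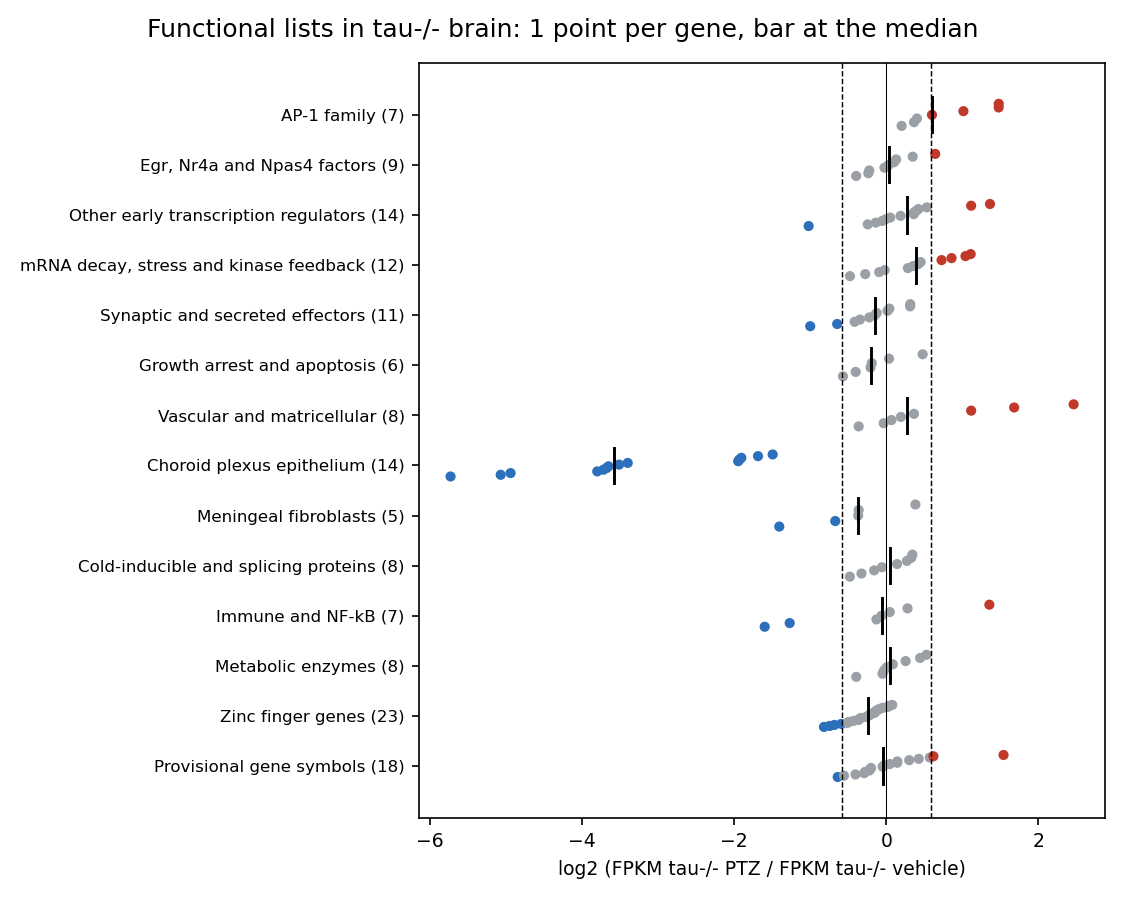
Change after PTZ in tau-/- brain by functional list. The horizontal axis is log2 of FPKM in tau-/- PTZ over tau-/- vehicle, each point is a gene (red over 1.5-fold higher, blue over 1.5-fold lower, grey within), black bars are list medians, numbers in brackets are genes listed and dashed lines mark 1.5-fold; the AP-1 points all lie right of 0 and the choroid plexus points all lie left of the lower threshold, and Defb11 is in no list.

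The largest group among the lower genes came from the choroid plexus epithelium, the tissue in the ventricles that makes cerebrospinal fluid. All 14 genes of that list were lower in tau-/- PTZ, beside 16.5% of all listed genes. They kept 1.89% to 35.6% of the tau-/- vehicle level. Their median log2 was -3.58, against -0.10 for all listed genes. Ttr, which encodes a carrier of thyroxine and the most abundant gene of the table, went from 1107 to 33.1 FPKM in tau-/-, with 1504 and 2492 FPKM in tau+/+ vehicle and PTZ. Kcnj13, a potassium channel of the choroid plexus on chromosome 1 from 87386363 to 87394729, was at 8.73 FPKM and 0.665 FPKM in tau-/-, with 13.5 and 25.6 FPKM in tau+/+. Folr1, a folate receptor on chromosome 7 from 101858331 to 101870788, was at 8.45 FPKM and 0.276 FPKM in tau-/-. For all 3 genes tau-/- PTZ was the lowest library, and tau-/- vehicle lay below both tau+/+ libraries. Slc4a5, a bicarbonate transporter, had the lowest log2 of the table at -5.73 (2.47 to 0.0466 FPKM). The water channel gene Aqp1 had -3.51, F5, the gene of coagulation factor V, -3.80, and 1500015O10Rik -3.40. Trpv4, Sostdc1, Cldn1, Rdh5 and Lbp were lower by less, with log2 values from -1.94 to -1.49. In tau+/+ the same 14 genes were all higher after PTZ, with log2 values from 0.60 to 0.99. Every gene of the table was selected for a change in tau+/+, and 175 of the 230 were higher there. The choroid plexus list was also drawn up with these values known, so the shared direction of its genes is a description only.

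Summed over the list without Ttr, choroid plexus FPKM was 59.7 in tau-/- vehicle, 8.31 in tau-/- PTZ, 82.0 in tau+/+ vehicle and 144 in tau+/+ PTZ. Of the 14 genes, 9 were below 1 FPKM in tau-/- PTZ and 0 in tau-/- vehicle. Of the 8 defining markers, 3 were above 1 FPKM in tau-/- PTZ (Ttr, 1500015O10Rik and Sostdc1) and 8 of 8 in each other library. In bulk RNA, fewer cells of a type and less RNA per cell cannot be told apart. How much choroid plexus was in each sample is not given, and its part in these lower values was not tested. Among the 211 genes outside the choroid plexus and meningeal lists, 22 were lower and the median log2 was -0.06.

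**Figure D5:**
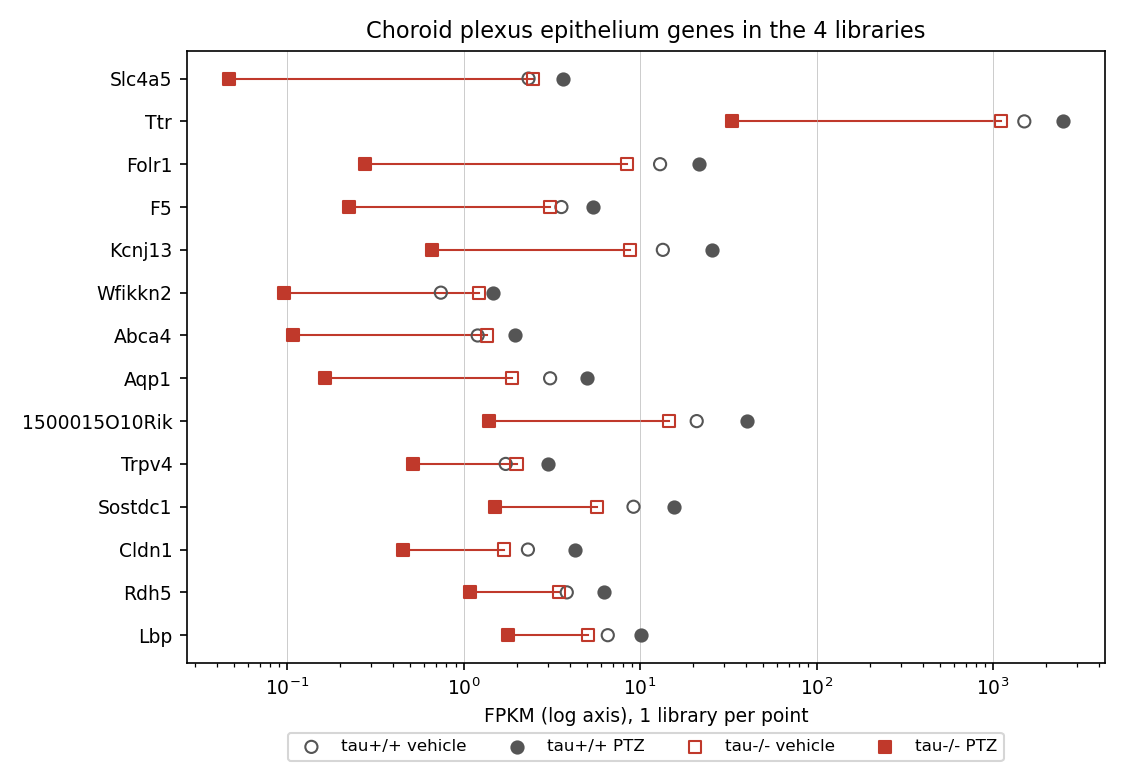
FPKM of the 14 choroid plexus epithelium genes in each of the 4 libraries. The horizontal axis is FPKM on a log scale, each row is a gene ordered by its tau-/- change, squares are tau-/- and circles tau+/+, open symbols are vehicle and filled symbols PTZ, and a line joins the tau-/- pair; in each row the filled square of tau-/- PTZ is the lowest and the filled circle of tau+/+ PTZ the highest value.

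Meningeal fibroblast genes moved less. Of 5, 2 were lower, beside 16.5% of all listed genes. Pcolce, which encodes an enhancer of procollagen processing, had a log2 of -1.41 (7.78 to 2.94 FPKM). Aldh1a2, a retinoic acid-synthesising enzyme, had -0.67. Lum, Mxra8 and Mfap2 were within 1.5-fold at -0.37, -0.36 and 0.38. The summed level of the 5 was 16.7 FPKM after vehicle and 11.0 FPKM after PTZ in tau-/-, beside 15.9 and 26.2 FPKM in tau+/+, and the part of meningeal tissue in each sample was not tested. Defb11, a beta-defensin gene, was listed at 0 FPKM after PTZ and at 5.86 FPKM after vehicle in tau-/-, so no fold was formed, and it was counted as lower. In tau+/+ it was at 11.7 and 20.4 FPKM. Sema3b, a secreted semaphorin, had a log2 of -1.92 (1.54 to 0.407 FPKM).

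The lower genes outside these tissues were few per group and mostly of low level. Both Wnt ligands of the table were lower, beside 16.5% of all listed genes. Wnt10a had a log2 of -1.06 (1.76 to 0.847 FPKM) and Wnt9a -0.76 (2.05 to 1.21 FPKM). In tau+/+ the 2 Wnt genes were also lower after PTZ, with -0.91 and -0.85. Both came within 1.5-fold with a pseudocount of 1 FPKM, and Wnt9a also against tau+/+ vehicle. Of the 23 zinc finger genes, 4 were lower (Zfp882, Plagl2, Rbak and Zfp748) and 0 higher, a share of lower genes near the 16.5% of the whole table. All 4 came within 1.5-fold with a pseudocount of 1 FPKM and also against tau+/+ vehicle. Of the 23, 20 lay below vehicle and 3 above it, while 95 of all 230 listed genes were above. All 23 were listed for a fall in tau+/+, as were 55 of the 230, so the whole table is an unlike background for them. The list's median log2 was -0.24, against -0.10 for all listed genes. The zinc finger genes, many of them for transcriptional repressors, had low levels, with means from 1.07 to 3.39 FPKM, and their median in tau+/+ was -0.80. Together with Hist2h3c2, a histone H3 gene with near-identical copies, the 4 zinc finger and 2 Wnt genes make up the 7 genes that were lower in both genotypes. The list of 7 immune and NF-kB genes was mixed, with Nfkbid higher, A2m and Tgtp1 lower and a median of -0.06. Over all listed genes, 8.7% were higher and 16.5% lower. A2m, a protease inhibitor, had a log2 of -1.27 (1.63 to 0.676 FPKM), and Tgtp1, a GTPase induced by interferon, had -1.60 from 0.466 FPKM, with reads that its near-identical copy could share. Of the 3 ciliary genes, Morn5 was higher with a log2 of 0.73, beside 8.7% higher over all listed genes. Tekt1 and Rfx3 were within 1.5-fold at 0.31 and -0.48.

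Of the 38 lower genes, 31 were higher after PTZ in tau+/+. Arl4d, a small GTPase of the ARF family on chromosome 11 from 101665541 to 101667832, had 10.5 FPKM after vehicle and 6.85 FPKM after PTZ in tau-/-, with 5.12 and 47.2 FPKM in tau+/+. Its log2 was -0.62 in tau-/- and 3.20 in tau+/+. C2cd4a had -0.72 in tau-/- and 1.61 in tau+/+, and E030010A14Rik -0.64 and 1.98. Plk5, a polo-like kinase gene, went from 6.62 to 4.14 FPKM in tau-/-, against 3.18 and 5.31 FPKM in tau+/+. Of the 31 genes lower in tau-/- and higher in tau+/+, the tau-/- vehicle level was above that of tau+/+ vehicle in 15 and below it in 16. Outside the choroid plexus list it was above in 11 of 17, among them Arl4d, Arc, Cebpb and Plk5, and below in the others, such as Kcnj2, Wdr86 and Tgtp1.

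The choice of vehicle therefore mattered. The tau+/+ vehicle library differs from tau-/- PTZ in genotype as well as in treatment, and the parts of genotype and treatment in these ratios cannot be told apart. With tau-/- PTZ set against tau+/+ vehicle, 14 of the 20 higher genes remained higher and 6 came within 1.5-fold (Nfkbid, Gm6194, Rai14, Zfp36l2, Unc13c and Gm11549), while 20 other genes became higher. Of the 38 lower genes, 25 remained lower, among them 14 of 14 choroid plexus genes. Another 12 came within 1.5-fold, Arc and Cebpb among them, E030010A14Rik became higher, and 7 other genes became lower. Cyr61, Apold1, Atf3, Maff, Btg2, Klf4, Dusp1, Fos, Zfp36, Sik1, Npas4, Fosb, Morn5 and Xlr3b were higher against both vehicle libraries.

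Near the threshold, the 5 higher genes closest to it were Fosb at 1.52-fold, Gm11549 at 1.54-fold, Rai14 at 1.55-fold, Npas4 at 1.56-fold and Unc13c at 1.60-fold. The 5 just inside it were 9430038I01Rik at 1.49-fold, Erdr1 at 1.48-fold, Gm129 at 1.45-fold, Gstm2 at 1.44-fold and Cbln1 at 1.42-fold. Among these, Erdr1 had the highest level, going from 24.1 to 35.7 FPKM. On the lower side, Zfp748 and Cish were at 1.51-fold, Arl4d at 1.53-fold, Rcsd1 at 1.54-fold and E030010A14Rik at 1.56-fold below vehicle. Gadd45b at 1.48-fold, Clp1 and Gm13629 at 1.47-fold, Cdkn2aip at 1.46-fold and Zbtb34 at 1.42-fold below vehicle stayed inside. Without replicates, the genes on either side of the threshold cannot be told apart.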

How the data were processed

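Brain RNA of 4 conditions, 1 library each, was sequenced as read pairs by the authors, who per the labels used CASAVA 1.7, TopHat2 2.03, Bowtie2 2.0.0.6 and Cuffdiff 2.01 with mm10, allowing 2 mismatches. The deposited FPKM values are Cuffdiff's. The gene annotation used is not given in the sources used here, and FPKM shows no library's own depth, for which the paper states only a minimum of aligned read pairs. The table also holds the authors' log2 fold changes and p-values of their comparisons, which were not used.

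The members and gene lists here were chosen with earlier results of these data known. Ratios of FPKM were taken on the log2 scale without a pseudocount. Defb11, at 0 FPKM in tau-/- PTZ, has no log2 and was ranked lowest in counts and medians. No test was made. Named genes are all higher genes, lower genes by list, the 5 nearest the threshold on each side, the 10 most abundant flat genes and members of a described list. Alternatives were pseudocounts of 0.1 and 1 FPKM, mean levels of at least 1 or 5 FPKM, the other vehicle library, centring, a 2-fold threshold and leaving out choroid plexus and meningeal genes. Positions are from GENCODE M21 (225 of 230 genes, 13 by another symbol), motifs from RefSeq windows. Functions were tested on simulated data. Software was Python 3.11.15 with pandas 2.3.3, numpy 2.4.6, matplotlib 3.10.9 and scipy 1.17.1.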

Additional observations from a re-analysis of the deposited data

Results flagged for a closer look

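For 33 genes past 1.5-fold in tau-/-, the change after PTZ had opposite signs in the tau-/- and tau+/+ pairs of libraries, with 31 of them higher in tau+/+. The difference between genotypes was not tested, since each condition has 1 library, and the list had been selected on these libraries. All 14 genes of the choroid plexus epithelium are among them. The genes for transporters and channels had tau-/- log2 values of -5.73 (Slc4a5), -3.71 (Kcnj13), -3.65 (Abca4), -3.51 (Aqp1) and -1.94 (Trpv4). Secreted proteins and a receptor had -5.07 (Ttr), -4.94 (Folr1), -3.80 (F5), -3.67 (Wfikkn2), -3.40 (1500015O10Rik), -1.93 (Sostdc1) and -1.49 (Lbp). The junction gene Cldn1 had -1.90 and the enzyme gene Rdh5 -1.68. Of the meningeal genes, Pcolce had -1.41 and Aldh1a2 -0.67. Defb11 was at 0 FPKM in tau-/- PTZ and had a log2 of 0.80 in tau+/+. Among early and activity-induced genes, Arc had -1.00, Cebpb -1.02, Kcnj2 -0.64 and Arl4d -0.62. The others higher in tau+/+ were Sema3b with -1.92, Tgtp1 with -1.60, Wdr86 with -1.47, A2m with -1.27, Sgms2 with -1.09, C2cd4a with -0.72, Plk5 with -0.68, E030010A14Rik with -0.64, Rcsd1 with -0.63 and Cish with -0.60. In the opposite sense, Unc13c had 0.68 and Gm11549 0.62 in tau-/-, with -0.74 and -0.95 in tau+/+.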

How the results depend on the processing

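The 20 higher and 38 lower genes became 12 and 21 with a pseudocount of 1 FPKM (Fosb, Atf3, Npas4, Nfkbid, Morn5, Rai14, Unc13c and Gm11549 were no longer higher), 6 and 6 among genes with a mean of at least 5 FPKM (of which 76 were within 1.5-fold), and 12 and 23 at a 2-fold threshold. Against tau+/+ vehicle 34 genes were higher. Leaving out choroid plexus and meningeal genes left 22 lower. Centring on the list's median (a shift of 0.10) kept 20 higher genes and 29 of 38 lower genes and added 5 higher ones. Against tau+/+ vehicle the median log2 was 1.22 for the AP-1 family, 0.80 for Egr, Nr4a and Npas4 factors, 0.20 for synaptic effectors, 0.29 for cold-inducible and splicing proteins, 0.33 for immune genes and 0.21 for genes under provisional symbols. It was 0.05 for growth arrest and apoptosis genes, -0.10 for meningeal genes, 0.12 for cochaperone genes, -0.66 for Wnt ligands and -0.33 for ciliary genes. These are the 11 list medians, of 17, that moved by over 0.2. The choroid plexus median was -2.85 and -1.36 with pseudocounts of 0.1 and 1 FPKM. It was -4.23 at a mean of at least 5 FPKM, which left 2 of its 14 genes. Against tau+/+ vehicle 76 genes changed sign, 51 of them from below to above vehicle, and 8 of the 76 were past 1.5-fold from tau-/- vehicle: Arl4d (0.42), E030010A14Rik (1.01), C2cd4a (0.12), Cebpb (0.056), Cish (0.00097), Plk5 (0.38), Unc13c (-0.23) and Gm11549 (-0.20). The cause was not tested. No paired analysis was possible because the labels carry no replicate numbers and each condition has 1 library. The files hold no fragment counts, so no counting error was attached to low FPKM values.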
